A study of Mus musculus with 9 samples.

Results

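The livers of mice that carried an inducible Mycl transgene were compared 48 h after doxycycline with livers of the same line that received no doxycycline. There were 3 Mycl livers and 3 no dox livers among the 9 livers of the series. The livers were placed in groups by their labels, and the members were chosen with earlier results of these data known. All mice were C57BL/6J and 4 weeks old. Mycl and no dox mice carried R26-M2-rtTA together with the Mycl transgene Col-TetOP-Mycl-ires-mCherry. Mycl mice had 0.2 ml of doxycycline at 2.0 mg/ml injected into the peritoneum, and no dox mice had no treatment. The other 3 livers, which entered the fits for the estimate of the spread and served for a comparison of both factors, were c-Myc livers, with R26-M2-rtTA and a c-Myc transgene built the same way (Col-TetOP-c-Myc-ires-mCherry), at the same dose and time. Of 21703 rows in the count table, 12651 passed the filter on low counts and were tested. In the Mycl livers 283 genes rose and 122 fell, which is 2.24% and 0.964% of the tested genes. Here a gene rose or fell where edgeR's quasi-likelihood test gave an adjusted p under 0.05.

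Mycl encodes L-Myc, a transcription factor of the Myc family that binds DNA as a dimer with Max. Such dimers bind the E-box sequence CACGTG, and the family is known for driving growth and cell division, with L-Myc known as the weaker transforming member. In the Tet-On system used here, the rtTA protein binds the tetracycline operator and switches on the transgene when doxycycline is present. An rtTA at the Rosa26 locus is made in many cell types, so the transgene need not be on in hepatocytes alone, and the mCherry reporter is translated from the same transcript through an internal ribosome entry site. No group with doxycycline and without a Myc transgene was analysed here, so effects of the transgene, of doxycycline and of the injection cannot be told apart. The labels give neither the time of day of collection nor the litters, so the p-values measure the spread between these livers.

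The E-box was counted in the promoters of the genes that moved, from 250 bases before to 50 bases after each start in RefSeq on GRCm38.p6. Each motif searched reads the same on both strands. CACGTG was present in 11.6% of the 9988 tested genes with a promoter in that table. Among genes that rose, 19 of 204 with a promoter held it, or 9.31%, and among genes that fell, 15 of 96 held it, or 15.6%. Among genes that moved in the same direction with all 6 livers, without Mycl liver 1 and without Mycl liver 3, it was in 7 of 67 promoters of genes that rose and in 5 of 15 of genes that fell. TTCNNNGAA, the core bound by STAT proteins, was in 8.45% of all these promoters, in 16 of 204 of genes that rose and in 5 of 96 of genes that fell. The 2 motifs cannot share bases. These matches describe letters only and were not tested. The windows below surround the E-box, in capitals, before the start of 2 genes that fell, the transcription factor genes Klf11 (chr12:24651121-24651202, plus strand) and Atoh8 (chr6:72235762-72235827, minus strand). They are shown beside those of 2 division genes that rose, Anln, an actin-binding gene of cytokinesis (chr9:22389226-22389311, minus strand), and Knstrn, a spindle and kinetochore gene (chr2:118813933-118814002, plus strand). These 4 were chosen after their values were seen.
Klf11: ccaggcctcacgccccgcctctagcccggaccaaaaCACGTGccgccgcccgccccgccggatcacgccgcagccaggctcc
Atoh8: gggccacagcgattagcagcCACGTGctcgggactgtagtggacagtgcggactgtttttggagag
Anln: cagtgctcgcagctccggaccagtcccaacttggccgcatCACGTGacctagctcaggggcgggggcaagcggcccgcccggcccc
Knstrn: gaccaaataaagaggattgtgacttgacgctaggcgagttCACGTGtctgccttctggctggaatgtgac

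Total counts were 11013412, 18887413 and 17238591 in Mycl livers 1, 2 and 3, against 20079232, 18086273 and 14043323 in no dox livers 1, 2 and 3. Mycl liver 1 was the shallowest of the 6 livers and stood apart in transcript length. Its median difference from the no dox mean in log2(CPM + 0.5) was 1.34 for 242 genes with a longest transcript under 800 nt and -0.34 for 1874 genes of 6000 nt and over. The same medians were 0.02 and 0.24 in Mycl livers 2 and 3 for the shortest genes. CPM are counts per 1e+06 reads of a library scaled by TMM, and values of a group are given in the order of its livers 1, 2 and 3. Results are therefore also given without Mycl liver 1 and, because Mycl liver 3 had the strongest induction, without Mycl liver 3.

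**Figure D1:**
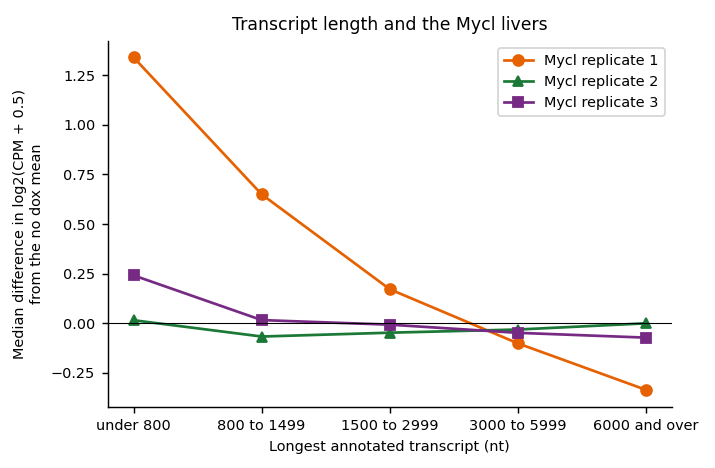
The x axis gives classes of the longest annotated transcript in nt and the y axis the median difference in log2(CPM + 0.5) of each Mycl liver from the mean of the 3 no dox livers, with 1 line per Mycl liver. Mycl liver 1 runs down from 1.34 in the shortest class to -0.34 in the longest, while Mycl livers 2 and 3 stay between -0.07 and 0.24.

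The transgene was on in every Mycl liver and differed several-fold between them. The reporter row IRES-mCherry had 52.3, 146 and 269.8 CPM in Mycl livers, against 1.09, 0.316 and 0.318 CPM in no dox livers (log2 fold change 7.98, SE 0.86, adjusted p = 0.00463). The no dox livers held 20, 5 and 4 reads of it, and the log2 fold change of IRES-mCherry was 7.38 without Mycl liver 3 and 8.96 without no dox liver 1. Mycl (ENSMUSG00000028654, chr4:122995652-123002485) had 49.1, 130.3 and 234 CPM in Mycl livers, against 10.8, 11.6 and 11.5 CPM in no dox livers (log2 fold change 3.61, SE 0.46, adjusted p = 0.00756). Liver 3 was highest and liver 1 lowest for both, and the groups did not overlap. Reads of the transgene and of the resident Mycl gene cannot be told apart in these counts. The Mycl call held without Mycl liver 1 and without Mycl liver 3 (adjusted p = 7.87e-05 without Mycl liver 1 and 0.0109 without Mycl liver 3), and it missed the threshold in 1 of the 6 fits that left out a liver, with an adjusted p = 0.0522.

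The partner and the relatives of Mycl did not pass. Max had 14.3, 15.6 and 17.5 CPM in Mycl livers, against 12.4, 12.9 and 13.8 CPM in no dox livers (log2 fold change 0.28, SE 0.21, adjusted p = 0.466). Myc had 4.61, 5.37 and 14.2 CPM in Mycl livers, against 4.05, 7.02 and 12.7 CPM in no dox livers (log2 fold change 0.06, SE 0.57, adjusted p = 0.961). Mycn had 1.72, 3.63 and 0.366 CPM in Mycl livers, against 1.75, 1.14 and 1.83 CPM in no dox livers (log2 fold change 0.30, SE 0.60, adjusted p = 0.794). The groups overlapped for Myc and Mycn. The list of the Max network had 13 tested genes, of which Mycl rose and 12 did not pass. Their median log2 fold change was 0.12, against 0.01 over all tested genes.

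The sampled tissue had the hepatocyte markers of liver at high levels. The sum of 6 of them, among them Alb, was 71170 to 118500 CPM in the Mycl livers and 113000 to 127400 CPM in the no dox livers. Of the markers of cholangiocytes, Kupffer cells, lymphocytes, sinusoidal endothelium, stellate cells, erythroid cells and pancreatic acinar cells, every summed level overlapped between the groups. The sum of 5 monocyte and neutrophil markers was 13.8 to 20.8 CPM in the Mycl livers and 5.57 to 7.80 CPM in the no dox livers, and did not overlap. No marker was at 0 in all 6 livers. In bulk tissue, a change in the number of cells of a type and a change in RNA per cell cannot be told apart.

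The genes that rose and the genes that fell differed in size and level. The median size of the log2 fold change was 1.89 for the 283 genes that rose and 0.95 for the 122 that fell. More than 2-fold changes were seen for 251 that rose and 56 that fell. The genes that rose had a median level of 4.28 CPM over the 6 livers, and those that fell 40.6 CPM. All 405 had groups that did not overlap, beside 13.2% of all tested genes with every Mycl liver above every no dox liver and 16.2% with every Mycl liver below. Among genes that rose, the highest Mycl liver was liver 3 for 137, liver 1 for 109 and liver 2 for 37.

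Leaving out a liver moved the counts strongly. Without Mycl liver 1, 471 genes rose and 127 fell, 3.68% and 0.993% of 12785 tested genes. Without Mycl liver 3, 110 rose and 27 fell, 0.861% and 0.211% of 12774 tested genes. Of the 283 genes that rose with all livers, 268 also rose without Mycl liver 1 and 102 without Mycl liver 3. The 122 that fell included 84 that fell without Mycl liver 1 and 23 without Mycl liver 3. In all 3 of these fits 102 genes rose and 22 fell. Leaving out each of the 6 livers in turn, no dox livers included, left 17 genes that rose and 5 that fell in every fit. The fit without no dox liver 1 alone gave 17 and 9. With the c-Myc livers left out of the fit, 237 genes rose and 64 fell. Of 83 genes chosen for naming that passed with all livers, 23, 35 and 36 passed without no dox livers 1, 2 and 3, so a call is held without every no dox liver only where a gene is said to pass in all 6 leave-out fits. Higher calls made up 69.9% of the calls, and 83.2% when libraries were scaled by their totals, 82.7% with upper-quartile factors and 81.9% with factors from transcripts of at least 1500 nt, as 69, 78 and 80 genes fell under those scalings. Scaling by library totals set the median log2 fold change of all genes at 0.14.

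**Figure D2:**
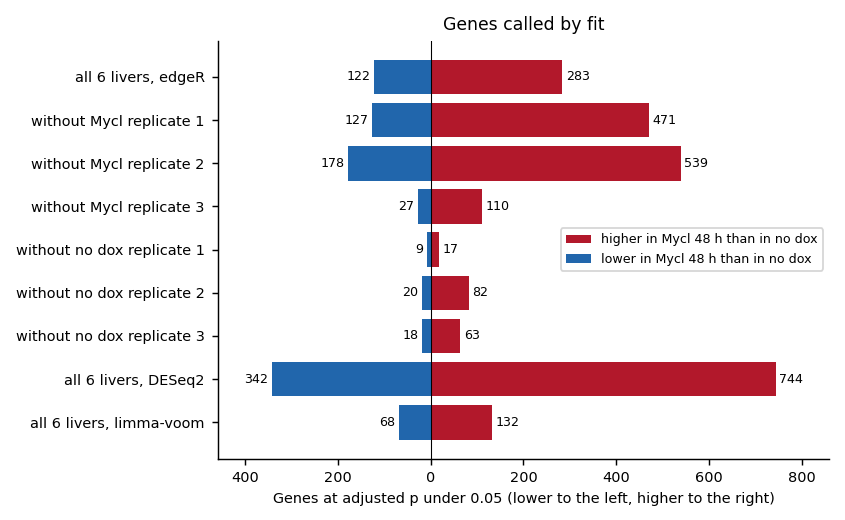
The bars give the number of genes past an adjusted p of 0.05 in each fit, higher in Mycl than in no dox livers to the right and lower to the left of 0. Each row is a fit with all livers, with 1 of the 6 livers left out, or by another tool, and every fit included the c-Myc livers for the spread. The counts ran from 17 to 744 to the right and from 9 to 342 to the left.

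Among the genes that passed in all 6 leave-out fits were 2 genes of the cell cycle and replication. Cdkn1a, which encodes the cyclin-dependent kinase inhibitor p21, had 30.2, 36.7 and 55.1 CPM in Mycl livers, against 4.05, 5.44 and 5.41 CPM in no dox livers (log2 fold change 3.04, SE 0.38, adjusted p = 0.00756). Every Mycl liver lay well above every no dox liver. Gins2, a subunit of the replicative helicase complex, had 10.9, 4.34 and 4.26 CPM in Mycl livers, against 1.04, 0.38 and 0.557 CPM in no dox livers (log2 fold change 3.23, SE 0.47, adjusted p = 0.0102), with Mycl liver 1 highest. Without no dox liver 1 the log2 fold change of Gins2 was 3.83. Emp1, a membrane protein gene of epithelial cells, had 11, 11.8 and 13.6 CPM in Mycl livers, against 2.96, 1.96 and 2.31 CPM in no dox livers (log2 fold change 2.32, SE 0.24, adjusted p = 0.00463), and its 3 Mycl livers lay close together.

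Genes of enzymes and small proteins were also in that group. Ip6k2, an inositol hexakisphosphate kinase gene, had 82, 64 and 73.7 CPM in Mycl livers, against 32.7, 28.6 and 32.2 CPM in no dox livers (log2 fold change 1.23, SE 0.16, adjusted p = 0.00848). Anxa2, a calcium-dependent membrane-binding protein gene, had 33.5, 33.9 and 32.2 CPM in Mycl livers, against 13.2, 11.6 and 13.1 CPM in no dox livers (log2 fold change 1.40, SE 0.16, adjusted p = 0.00463). For both, the 3 livers of each group spanned a narrow range and the groups did not overlap. Fam107a, an actin-associated protein gene, had 5.33, 4.39 and 5.3 CPM in Mycl livers, against 0.0547, 0.506 and 0.557 CPM in no dox livers (log2 fold change 3.80, SE 0.54, adjusted p = 0.0102). The no dox livers held 1, 8 and 7 reads of Fam107a, so the fold change rests on few reads there. Cyp4a12a, Inhbe, Klf11, Mn1 and Aox1 were the 5 genes that fell in all 6 leave-out fits.

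**Figure D3:**
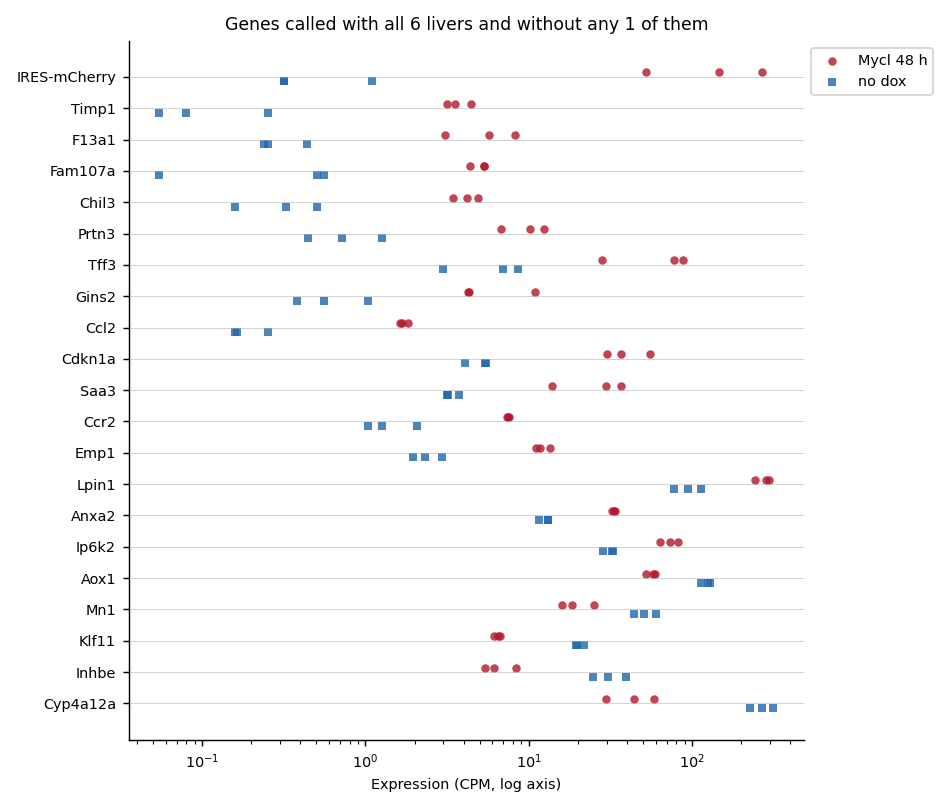
Each point is 1 liver, placed by its expression in CPM on a log axis, with Mycl livers as red circles and no dox livers as blue squares. The 21 rows are the named genes that passed with all livers and in each of the 6 fits that left out a liver. The groups do not overlap for any of them, from IRES-mCherry with the largest rise to Cyp4a12a with the largest fall.

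Tff3 and Lcn2, the genes given as markers of this comparison, rose. Tff3 (ENSMUSG00000024029, chr17:31125306-31129646), which encodes a trefoil peptide of mucosal surfaces and bile ducts, had 77.4, 27.9 and 87.5 CPM in Mycl livers, against 8.65, 2.97 and 6.92 CPM in no dox livers (log2 fold change 3.37, SE 0.46, adjusted p = 0.0102). Mycl liver 2 was lowest and still above every no dox liver, and Tff3 passed in all 6 leave-out fits. Lcn2 (ENSMUSG00000026822, chr2:32384633-32388252), which encodes lipocalin 2, a protein that binds bacterial iron carriers, had 66.6, 111 and 300.2 CPM in Mycl livers, against 4.16, 7.34 and 8.83 CPM in no dox livers (log2 fold change 4.57, SE 0.73, adjusted p = 0.0156). As for the reporter, Mycl liver 3 was highest and liver 1 lowest. Lcn2 passed without Mycl liver 1 and without Mycl liver 3 (adjusted p = 0.00888 without Mycl liver 1 and 0.0273 without Mycl liver 3), but in 3 of the 6 leave-out fits only. Its log2 fold change was 3.77 without Mycl liver 3. The c-Myc livers had 251, 58.3 and 75.2 CPM of Lcn2. For Lcn2 the difference between Mycl and c-Myc livers did not pass (log2 difference 0.31, SE 0.62, adjusted p = 0.775).

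The acute phase genes Saa3 and Orm2 rose as well. Saa3, a serum amyloid A gene of macrophages and stressed tissues, had 29.9, 13.9 and 36.9 CPM in Mycl livers, against 3.72, 3.16 and 3.18 CPM in no dox livers (log2 fold change 2.99, SE 0.37, adjusted p = 0.00741). Orm2, which encodes an orosomucoid, had 52.5, 57.9 and 132 CPM in Mycl livers, against 7.33, 7.46 and 9.71 CPM in no dox livers (log2 fold change 3.31, SE 0.45, adjusted p = 0.0102), with Mycl liver 3 highest. Both belong to families with near-identical copies, for which reads may be split. Of 38 tested genes of complement and coagulation, only C6 passed. C6, a component of the membrane attack complex, fell, with 56.2, 109.9 and 43.9 CPM in Mycl livers, against 171, 203 and 195 CPM in no dox livers (log2 fold change -1.44, SE 0.31, adjusted p = 0.0389), and it did not pass without Mycl liver 1 (adjusted p = 0.0632) or without Mycl liver 3 (adjusted p = 0.0963). The median of this list in Mycl livers 1, 2 and 3 was -0.95, -0.04 and -0.02, so liver 1 stood apart.

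Genes of iron and metal handling moved in both directions. Of 25 tested genes (25 listed), 3 rose, 2 fell and 20 missed the threshold, beside 2.24% and 0.964% of all tested genes. With Mycl liver 1 left out, 5 rose and 3 fell, and without Mycl liver 3, 2 and 1. Hamp, which encodes the iron hormone hepcidin, had 118, 103 and 120.0 CPM in Mycl livers, against 376, 423 and 238 CPM in no dox livers (log2 fold change -1.60, SE 0.28, adjusted p = 0.0207; adjusted p = 0.025 without Mycl liver 1 and 0.0612 without Mycl liver 3). Tfrc, the transferrin receptor gene, had 30.8, 45.2 and 43.1 CPM in Mycl livers, against 10.2, 10.9 and 15.7 CPM in no dox livers (log2 fold change 1.70, SE 0.32, adjusted p = 0.0249; adjusted p = 0.0167 without Mycl liver 1 and 0.0602 without Mycl liver 3). The groups did not overlap for either, with all 3 Mycl livers near 1 level for Hamp. Mt2, a metallothionein gene, had 67.7, 75.6 and 416 CPM in Mycl livers, against 26.4, 22.2 and 25.2 CPM in no dox livers (log2 fold change 2.92, SE 0.62, adjusted p = 0.0374), and Mycl liver 3 lay far above the other Mycl livers. Without Mycl liver 3 its log2 fold change was 1.59 (SE 0.17, adjusted p = 0.0109), and Mt2 passed in 3 of the 6 leave-out fits.

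Several genes of inflammatory leukocytes rose. The list of monocytes and neutrophils had 18 tested genes (21 listed). Of these, 6 rose, 0 fell and 12 missed the threshold, beside 2.24% and 0.964% of all tested genes. Leaving out Mycl liver 1 gave 7 and 0, and leaving out Mycl liver 3 gave 5 and 0. The median log2 fold change of the list was 1.5, against 0.01 over all tested genes, and all 18 tested members had a value above 0. Genes with few no dox reads, such as Ccl2, passed the filter on low counts through the induced livers. The median and the count above 0 lean upward for that reason and are description only. Ccr2, the receptor of monocytes for the chemokine Ccl2, had 7.41, 7.48 and 7.62 CPM in Mycl livers, against 1.04, 1.26 and 2.07 CPM in no dox livers (log2 fold change 2.39, SE 0.27, adjusted p = 0.00463). Ccl2 had 1.63, 1.68 and 1.83 CPM in Mycl livers, against 0.164, 0.253 and 0.159 CPM in no dox livers (log2 fold change 3.10, SE 0.35, adjusted p = 0.00463), from 18, 31 and 30 reads in the Mycl livers and 3, 4 and 2 reads in the no dox livers. Both passed in all 6 leave-out fits, with groups that did not overlap. Ccr2 is also 1 of the 5 monocyte and neutrophil markers whose summed level was higher in the Mycl livers, and the part of cell number in these genes was not tested.

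Some other leukocyte genes rose as well, but not all went that way. H2-Aa, H2-Ab1, H2-Eb1 and Cd74, of the interferon response and MHC list, had log2 fold changes of -0.68, -0.83, -1.14 and -0.84. None of them passed. Chil3, a chitinase-like protein gene of macrophages, had 3.43, 4.17 and 4.87 CPM in Mycl livers, against 0.328, 0.506 and 0.159 CPM in no dox livers (log2 fold change 3.59, SE 0.36, adjusted p = 0.00463). Itgam, which encodes the integrin CD11b, had 6.05, 9.54 and 9.87 CPM in Mycl livers, against 2.24, 2.09 and 2.39 CPM in no dox livers (log2 fold change 1.93, SE 0.28, adjusted p = 0.0102; adjusted p = 0.00491 without Mycl liver 1 and 0.0271 without Mycl liver 3). Lyz2, the lysozyme gene of myeloid cells, had 282, 115 and 89.2 CPM in Mycl livers, against 55.7, 45 and 58.2 CPM in no dox livers (log2 fold change 1.61, SE 0.38, adjusted p = 0.0481), with the highest value in Mycl liver 1 and a log2 fold change of 1.004 without that liver. Itgam and Lyz2 had every Mycl liver above every no dox liver. Prtn3, a serine protease gene of neutrophil granules, had 10.1, 6.78 and 12.4 CPM in Mycl livers, against 1.26, 0.443 and 0.716 CPM in no dox livers (log2 fold change 3.55, SE 0.39, adjusted p = 0.00463). F13a1, the coagulation factor XIII A chain gene of monocytes and platelets, had 3.07, 5.69 and 8.29 CPM in Mycl livers, against 0.438, 0.253 and 0.239 CPM in no dox livers (log2 fold change 4.14, SE 0.45, adjusted p = 0.00463). Chil3, Prtn3 and F13a1 passed in all 6 leave-out fits, with groups that did not overlap. The no dox livers held 6, 8 and 2 reads of Chil3, 23, 7 and 9 of Prtn3 and 8, 4 and 3 of F13a1. These fold changes therefore rest on few reads there, and Chil3 and F13a1 passed the filter on low counts through the induced livers.

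Resident macrophage genes gave 2 calls. The Kupffer cell list had 16 tested genes (16 listed). Of these, 1 rose, 1 fell and 14 missed the threshold, beside 2.24% and 0.964% of all tested genes. The list counts were 3 and 0 without Mycl liver 1, and 0 and 0 without Mycl liver 3. The member that fell was C6, whose values are given above with the complement genes. Marco, a scavenger receptor gene, had 12.7, 29.2 and 26.5 CPM in Mycl livers, against 7.83, 8.98 and 9.71 CPM in no dox livers (log2 fold change 1.38, SE 0.31, adjusted p = 0.0441), and did not pass without Mycl liver 3 (adjusted p = 0.0982). The difference between the Kupffer cell and the monocyte lists was not tested. Lymphocyte genes had 5 tested members, and none passed. Of 11 tested erythroid genes, only Tfrc did. Interferon response and MHC genes had 33 tested members, of which only Rsad2, an antiviral enzyme gene, moved; it fell, with 11.6, 11.3 and 13.8 CPM in Mycl livers, against 19.1, 19.8 and 18.4 CPM in no dox livers (log2 fold change -0.64, SE 0.13, adjusted p = 0.0353), and did not pass without Mycl liver 3 (adjusted p = 0.0652).

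Several genes of the YAP and cytoskeleton list rose, among them annexin and S100 genes, and 1 target of YAP fell. The list of YAP and cytoskeleton genes had 20 tested genes (22 listed). Of these, 7 rose, 1 fell and 12 missed the threshold, beside 2.24% and 0.964% of all tested genes. With Mycl liver 1 left out, 8 rose and 1 fell, and without Mycl liver 3, 2 and 0. Those 2 were Anxa2 and S100a6. The median log2 fold change of the list was 0.92, and the per-liver medians were 0.90, 0.75 and 0.73 in Mycl livers 1, 2 and 3. Vim, the gene of the intermediate filament vimentin, had 50.4, 66.6 and 75.9 CPM in Mycl livers, against 26.4, 22.8 and 27.8 CPM in no dox livers (log2 fold change 1.33, SE 0.24, adjusted p = 0.0216; adjusted p = 0.011 without Mycl liver 1 and 0.0558 without Mycl liver 3). S100a11, a calcium-binding protein gene, had 3.07, 3.52 and 4.81 CPM in Mycl livers, against 1.53, 1.26 and 1.27 CPM in no dox livers (log2 fold change 1.48, SE 0.29, adjusted p = 0.0277; adjusted p = 0.0183 without Mycl liver 1 and 0.0698 without Mycl liver 3). Vim and S100a11 had groups that did not overlap, with Mycl liver 3 highest. The member that fell was Ccn1, a matricellular protein gene and well-known YAP target, with 9.58, 13.1 and 9.14 CPM in Mycl livers, against 19.9, 28.1 and 35.3 CPM in no dox livers (log2 fold change -1.38, SE 0.23, adjusted p = 0.018; adjusted p = 0.0257 without Mycl liver 1 and 0.0648 without Mycl liver 3). Ccn2, of the same list, went the other way and did not pass (log2 fold change 1.14, SE 0.47, adjusted p = 0.209). It had 11.4, 23 and 30.8 CPM in Mycl livers, against 6.62, 9.17 and 14.1 CPM in no dox livers. Amotl2 and Ajuba, also listed, did not pass, at -0.50 and 0.20 on the log2 scale.

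Matrix genes of stellate cells rose at 2 members. Of 28 tested genes (28 listed), 2 rose, 0 fell and 26 missed the threshold, beside 2.24% of all tested genes that rose. Leaving out Mycl liver 1 gave 4 and 0, and leaving out Mycl liver 3 gave 1 and 0. Timp1, an inhibitor of matrix metalloproteinases, had 3.16, 3.52 and 4.45 CPM in Mycl livers, against 0.0547, 0.253 and 0.0796 CPM in no dox livers (log2 fold change 4.77, SE 0.52, adjusted p = 0.00463). The no dox livers held 1, 4 and 1 reads of Timp1, and the Mycl livers 35, 65 and 73. The log2 fold change of Timp1 was 5.73 without no dox liver 2. Acta2, the smooth muscle actin gene, had 11.5, 16.3 and 17.8 CPM in Mycl livers, against 2.79, 3.54 and 3.26 CPM in no dox livers (log2 fold change 2.25, SE 0.47, adjusted p = 0.0361; adjusted p = 0.0271 without Mycl liver 1 and 0.0766 without Mycl liver 3). The sinusoidal endothelium list had 22 tested members and no call, with medians of -0.78, -0.01 and -0.35 in Mycl livers 1, 2 and 3.

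Klf11, Inhbe and Smad7 fell. Klf11, a Krüppel-like factor gene first described as inducible by TGF-beta, had 6.14, 6.67 and 6.52 CPM in Mycl livers, against 21.7, 19.6 and 19.6 CPM in no dox livers (log2 fold change -1.65, SE 0.14, adjusted p = 0.00329). The spread within both groups was small, and Klf11 had the smallest adjusted p among the genes that fell. Inhbe, which encodes the activin E subunit, a hormone made by hepatocytes, had 6.14, 8.4 and 5.42 CPM in Mycl livers, against 39.5, 30.4 and 24.7 CPM in no dox livers (log2 fold change -2.24, SE 0.28, adjusted p = 0.00741). Smad7, an inhibitor in the TGF-beta and BMP pathways, had 8.49, 12.3 and 11.3 CPM in Mycl livers, against 25, 24.5 and 22.8 CPM in no dox livers (log2 fold change -1.17, SE 0.17, adjusted p = 0.0106; adjusted p = 0.013 without Mycl liver 1 and 0.0398 without Mycl liver 3).

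Id2, which encodes an inhibitor of helix-loop-helix factors, had 57.4, 44.2 and 33.8 CPM in Mycl livers, against 140.2, 119 and 96.4 CPM in no dox livers (log2 fold change -1.40, SE 0.22, adjusted p = 0.0143; adjusted p = 0.00864 without Mycl liver 1 and 0.0478 without Mycl liver 3). Atoh8, a helix-loop-helix factor gene, had 13.2, 13.7 and 11.2 CPM in Mycl livers, against 22.4, 24.9 and 26.7 CPM in no dox livers (log2 fold change -0.96, SE 0.14, adjusted p = 0.0106; adjusted p = 0.0145 without Mycl liver 1 and 0.0485 without Mycl liver 3). In both, every Mycl liver lay below every no dox liver. Tbx3, a T-box factor gene of pericentral hepatocytes and liver progenitors, had 25.4, 34.4 and 20.2 CPM in Mycl livers, against 92.5, 64.1 and 81.9 CPM in no dox livers (log2 fold change -1.58, SE 0.23, adjusted p = 0.0102; adjusted p = 0.018 without Mycl liver 1 and 0.038 without Mycl liver 3). Mn1, a transcriptional co-regulator gene, had 18.3, 25 and 16.1 CPM in Mycl livers, against 44.1, 60.02 and 50.7 CPM in no dox livers (log2 fold change -1.38, SE 0.20, adjusted p = 0.0102). Arrdc3, an arrestin-domain gene, had 56.6, 30.6 and 73.9 CPM in Mycl livers, against 354, 283 and 174 CPM in no dox livers (log2 fold change -2.33, SE 0.44, adjusted p = 0.0249), with a wide spread in both groups.

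The list of liver transcription factors gave 1 call. Of 20 tested genes (20 listed), 0 rose, 1 fell and 19 missed the threshold, beside 0.964% of all tested genes that fell. The list counts were 0 and 1 without Mycl liver 1, and 0 and 0 without Mycl liver 3. The member that fell was Ppara, the nuclear receptor of fatty acid breakdown, with 103, 146 and 114 CPM in Mycl livers, against 238, 250.2 and 252 CPM in no dox livers (log2 fold change -1.03, SE 0.18, adjusted p = 0.0198; adjusted p = 0.0245 without Mycl liver 1 and 0.0703 without Mycl liver 3). Paqr7, a membrane progestin receptor gene, is on no list and had 16.3, 25.5 and 20.5 CPM in Mycl livers, against 57, 47.8 and 48.4 CPM in no dox livers (log2 fold change -1.30, SE 0.17, adjusted p = 0.00868; adjusted p = 0.00716 without Mycl liver 1 and 0.0294 without Mycl liver 3).

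Genes downstream of cytokine signals gave calls in both directions. The STAT3 list had 18 tested genes (19 listed). Of these, 2 rose, 1 fell and 15 missed the threshold, beside 2.24% and 0.964% of all tested genes. With Mycl liver 1 left out, 4 rose and 1 fell, and without Mycl liver 3, 0 and 1. Pim1, a kinase gene and STAT target, fell, with 13.6, 10.8 and 17.6 CPM in Mycl livers, against 42.5, 31.6 and 31.5 CPM in no dox livers (log2 fold change -1.33, SE 0.19, adjusted p = 0.0102; adjusted p = 0.0168 without Mycl liver 1 and 0.0157 without Mycl liver 3). Cebpd, a transcription factor gene of the acute phase, rose, with 10.6, 9.54 and 11.2 CPM in Mycl livers, against 5.09, 5 and 6.44 CPM in no dox livers (log2 fold change 0.92, SE 0.18, adjusted p = 0.0301; adjusted p = 0.0255 without Mycl liver 1 and 0.0703 without Mycl liver 3). Il1r1, the interleukin-1 receptor gene, rose at 0.63 (SE 0.14) on the log2 scale and did not pass without Mycl liver 3 (adjusted p = 0.0944). Of 20 tested immediate early genes, only Junb, a subunit of AP-1, moved. It fell to 18.7, 21 and 23 CPM in the Mycl livers, against 28.7, 61.1 and 86.7 CPM in the no dox livers (log2 fold change -1.49, SE 0.31, adjusted p = 0.0374), with a wide range in the no dox livers, and passed neither without Mycl liver 1 (adjusted p = 0.0595) nor without Mycl liver 3 (adjusted p = 0.0842).

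Among clock genes 4 passed, and the time of collection is not given. Of 18 tested genes (18 listed), 1 rose, 3 fell and 14 missed the threshold, beside 2.24% and 0.964% of all tested genes. Leaving out Mycl liver 1 gave 2 and 4, and leaving out Mycl liver 3 gave 0 and 1. Bhlhe41, which encodes the repressor Dec2, had 0.813, 0.813 and 0.548 CPM in Mycl livers, against 3.67, 5.44 and 3.18 CPM in no dox livers (log2 fold change -2.50, SE 0.38, adjusted p = 0.0113; adjusted p = 0.0182 without Mycl liver 1 and 0.0485 without Mycl liver 3). Nr1d1, which encodes the repressor Rev-erb alpha, had 36, 45.4 and 46.9 CPM in Mycl livers, against 121, 148 and 93.7 CPM in no dox livers (log2 fold change -1.5, SE 0.29, adjusted p = 0.0267; adjusted p = 0.044 without Mycl liver 1 and 0.0703 without Mycl liver 3). For both, all Mycl livers lay below all no dox livers.

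Dbp, a clock output factor gene, had 12.4, 7.48 and 7.92 CPM in Mycl livers, against 29.7, 49.6 and 23.9 CPM in no dox livers (log2 fold change -1.91, SE 0.43, adjusted p = 0.0441; adjusted p = 0.0364 without Mycl liver 1 and 0.126 without Mycl liver 3). Per1, a core repressor gene, rose, with 24, 26.1 and 35.2 CPM in Mycl livers, against 9.8, 14.1 and 16.9 CPM in no dox livers (log2 fold change 1.07, SE 0.23, adjusted p = 0.0389; adjusted p = 0.0217 without Mycl liver 1 and 0.0885 without Mycl liver 3). Of these 4, only Bhlhe41 passed without Mycl liver 3. The activators did not pass with all livers. Arntl had 18.2, 22.8 and 26.1 CPM in Mycl livers, against 13.6, 11.4 and 15.5 CPM in no dox livers (log2 fold change 0.73, SE 0.18, adjusted p = 0.0609), and Clock had 91.2, 113 and 95.9 CPM in Mycl livers, against 116, 101 and 116 CPM in no dox livers (log2 fold change -0.15, SE 0.13, adjusted p = 0.536). A part of the hour of collection in these values was not tested.

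Several genes of fat breakdown fell. The list of fatty acid oxidation and ketogenesis had 35 tested genes (35 listed). Of these, 0 rose, 7 fell and 28 missed the threshold, beside 2.24% and 0.964% of all tested genes. The list counts were 0 and 6 without Mycl liver 1, and 0 and 1 without Mycl liver 3. In those fits, 0.993% and 0.211% of all tested genes fell. The median log2 fold change of the list was -0.39, and the Mycl livers gave -0.48, -0.51 and -0.41. Ehhadh, the bifunctional enzyme gene of peroxisomes, had 193, 272 and 235 CPM in Mycl livers, against 496, 481 and 461 CPM in no dox livers (log2 fold change -1.04, SE 0.20, adjusted p = 0.0295; adjusted p = 0.0396 without Mycl liver 1 and 0.0868 without Mycl liver 3). Cpt2, of the mitochondrial carnitine shuttle, had 75.4, 107 and 88.5 CPM in Mycl livers, against 156, 141 and 152 CPM in no dox livers (log2 fold change -0.72, SE 0.15, adjusted p = 0.0381). Vnn1, a pantetheinase gene regulated by Ppara, had 16.9, 16.9 and 15.5 CPM in Mycl livers, against 36.9, 25.9 and 30.7 CPM in no dox livers (log2 fold change -0.92, SE 0.15, adjusted p = 0.0169). The groups did not overlap for Ehhadh, Cpt2 or Vnn1, and none of them passed without Mycl liver 3.

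Single genes of lipid droplets and of triglyceride synthesis passed in both directions. G0s2, an inhibitor of adipose triglyceride lipase, had 6.05, 3.47 and 3.11 CPM in Mycl livers, against 35.5, 14.1 and 20.5 CPM in no dox livers (log2 fold change -2.50, SE 0.37, adjusted p = 0.0102; adjusted p = 0.00888 without Mycl liver 1 and 0.0432 without Mycl liver 3). Plin2, a coat protein gene of lipid droplets, had 182, 167 and 123 CPM in Mycl livers, against 469, 342 and 358 CPM in no dox livers (log2 fold change -1.31, SE 0.22, adjusted p = 0.0185; adjusted p = 0.0168 without Mycl liver 1 and 0.0652 without Mycl liver 3). Lpin1 (ENSMUSG00000020593, chr12:16535669-16610966), which encodes the phosphatidate phosphatase lipin 1, rose, with 242, 286 and 296 CPM in Mycl livers, against 77.7, 95 and 114 CPM in no dox livers (log2 fold change 1.53, SE 0.17, adjusted p = 0.00464), and passed in all 6 leave-out fits. Its 3 Mycl livers lay within 242 and 296 CPM. Aldh3a2, the fatty aldehyde dehydrogenase gene, fell, with 106, 109 and 75.7 CPM in Mycl livers, against 254, 239 and 223 CPM in no dox livers (log2 fold change -1.30, SE 0.18, adjusted p = 0.0102; adjusted p = 0.0089 without Mycl liver 1 and 0.0273 without Mycl liver 3). None of 34 tested genes of cholesterol and fatty acid synthesis passed.

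The cytochrome P450 genes that passed with all livers fell. Of 51 tested genes (55 listed), 0 rose, 3 fell and 48 missed the threshold, beside 2.24% and 0.964% of all tested genes. With Mycl liver 1 left out, 3 rose and 3 fell, and without Mycl liver 3, 0 and 1. Cyp4a12a (ENSMUSG00000066071, chr4:115299046-115332815), a fatty acid hydroxylase gene that is higher in male than in female mice, had 44.3, 58.1 and 29.6 CPM in Mycl livers, against 227, 315 and 267 CPM in no dox livers (log2 fold change -2.61, SE 0.30, adjusted p = 0.00464). Its near-identical neighbour Cyp4a12b had 15.8, 29.3 and 8.41 CPM in Mycl livers, against 83, 105 and 81.1 CPM in no dox livers (log2 fold change -2.32, SE 0.44, adjusted p = 0.0263; adjusted p = 0.0415 without Mycl liver 1 and 0.0626 without Mycl liver 3), and reads of the 2 copies may be split. Cyp4a32 had 9.49, 9.87 and 9.99 CPM in Mycl livers, against 21.1, 16.3 and 16.5 CPM in no dox livers (log2 fold change -0.87, SE 0.20, adjusted p = 0.0448; adjusted p = 0.0647 without Mycl liver 1 and 0.121 without Mycl liver 3).

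The P450 genes that rose without Mycl liver 1 were Cyp2b9, Cyp17a1 and Cyp1b1, none of which passed with all livers. Cyp2b9 had 1.54, 1.9 and 24.1 CPM in Mycl livers, against 0.274, 0.822 and 1.27 CPM in no dox livers (adjusted p = 0.116). Cyp17a1 had 2.71, 4.66 and 12.5 CPM in Mycl livers, against 2.74, 0.38 and 1.19 CPM in no dox livers (adjusted p = 0.098). Mycl liver 3 was highest for both. Cyp1b1 had 0.903, 2.39 and 4.26 CPM in Mycl livers, against 0.93, 0.506 and 1.35 CPM in no dox livers (adjusted p = 0.163). Mycl liver 3 also stood apart from Mycl livers 1 and 2 at genes known to differ between male and female mouse livers. Cyp7b1, an oxysterol hydroxylase gene higher in males, had 97.8, 175 and 13.8 CPM in Mycl livers, against 382, 396 and 442 CPM in no dox livers (adjusted p = 0.109). Cux2, a transcription factor gene higher in females, had 0.632, 1.25 and 6.4 CPM in Mycl livers, against 0.985, 1.33 and 0.716 CPM in no dox livers (adjusted p = 0.375). Cyp4a12a was lowest in the same liver. The labels give no sex, and its part in these values was not tested. These genes were chosen after their values were seen. No gene of the growth hormone and IGF list passed among 23 tested.

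Conjugation and oxidation enzymes gave the most members that fell among the 36 lists by count, though not by share. Of 49 tested genes (52 listed), 0 rose, 9 fell and 40 missed the threshold, beside 0.964% of all tested genes that fell. The smaller list of fatty acid oxidation and ketogenesis had 7 of 35. Leaving out Mycl liver 1 gave 0 and 6, and leaving out Mycl liver 3 gave 0 and 2. Aox1, an aldehyde oxidase gene, had 59.3, 58 and 52.3 CPM in Mycl livers, against 128, 125 and 113 CPM in no dox livers (log2 fold change -1.11, SE 0.12, adjusted p = 0.00463), with a narrow spread in both groups. Ugt2b38, a glucuronosyltransferase gene, had 11.8, 16.8 and 2.92 CPM in Mycl livers, against 55.4, 47.4 and 58.2 CPM in no dox livers (log2 fold change -2.35, SE 0.50, adjusted p = 0.0382; adjusted p = 0.0435 without Mycl liver 1 and 0.0398 without Mycl liver 3), with Mycl liver 3 lowest. Its relatives Ugt2b1 and Ugt2b5 fell at -1.27 (SE 0.26) and -0.89 (SE 0.19), and the carboxylesterase gene Ces1e at -1.31 (SE 0.22), on the log2 scale. None of these 3 passed without Mycl liver 3, with an adjusted p = 0.103 for Ugt2b1, 0.118 for Ugt2b5 and 0.0648 for Ces1e. Ces2c, another carboxylesterase gene, had 22.8, 24.4 and 5.18 CPM in Mycl livers, against 79.8, 87.4 and 88.9 CPM in no dox livers (log2 fold change -2.29, SE 0.45, adjusted p = 0.0299; adjusted p = 0.0266 without Mycl liver 1 and 0.0157 without Mycl liver 3). The Ugt2b and Ces genes have near-identical copies.

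Other functions of the hepatocyte gave few calls. Of 24 tested genes of bile acid synthesis and transport, only Abcb4, the phospholipid floppase gene of the canaliculus, fell, with 112, 195 and 164 CPM in Mycl livers, against 306, 305 and 316 CPM in no dox livers (log2 fold change -0.98, SE 0.20, adjusted p = 0.0349; adjusted p = 0.0247 without Mycl liver 1 and 0.0885 without Mycl liver 3). None of 44 genes of the urea cycle and amino acid breakdown and none of 20 hepatocyte genes passed. None of 9 tested fetal liver genes passed, and of 18 tested cholangiocyte and progenitor genes only Tff3 did. The pancreatic acinar list had 12 tested genes and no call. Gclc, the rate-limiting enzyme gene of glutathione synthesis, was the member of the NRF2 list that fell, among 27 tested, with 356, 393 and 309.7 CPM in Mycl livers, against 668, 582 and 571 CPM in no dox livers (log2 fold change -0.78, SE 0.16, adjusted p = 0.0346; adjusted p = 0.0291 without Mycl liver 1 and 0.119 without Mycl liver 3).

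Sugar and inositol metabolism gained single genes. Pfkfb1, the liver enzyme that sets fructose 2,6-bisphosphate, had 31.4, 23.4 and 34.6 CPM in Mycl livers, against 13.5, 12.7 and 13.4 CPM in no dox livers (log2 fold change 1.18, SE 0.17, adjusted p = 0.0102; adjusted p = 0.0125 without Mycl liver 1 and 0.0312 without Mycl liver 3). Pkm, the pyruvate kinase gene of muscle and growing cells, had 31.8, 40.5 and 40.5 CPM in Mycl livers, against 18.9, 19.4 and 19.8 CPM in no dox livers (log2 fold change 0.96, SE 0.20, adjusted p = 0.0363; adjusted p = 0.0183 without Mycl liver 1 and 0.0754 without Mycl liver 3). Both rose without overlap, beside 35 tested genes of glycolysis and gluconeogenesis of which 33 did not pass. Of all tested genes, 2.24% rose. Isyna1, the inositol-3-phosphate synthase gene, had 18.4, 23.6 and 53.1 CPM in Mycl livers, against 5.86, 5.88 and 6.6 CPM in no dox livers (log2 fold change 2.38, SE 0.38, adjusted p = 0.0158; adjusted p = 0.00716 without Mycl liver 1 and 0.0177 without Mycl liver 3), with Mycl liver 3 highest.

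Of the growth genes often named for Myc factors, ribosomal protein genes gave many calls and the lists for ribosome assembly and translation few. Of 80 tested cytosolic ribosomal protein genes, counted by name after their values were seen, 24 rose and 0 fell, beside 2.24% of all tested genes that rose. Their median log2 fold change was 1.28. Without Mycl liver 1, 57 rose with a median of 0.73, and without Mycl liver 3, 1 rose with a median of 1.46. Leaving out any 1 of the 6 livers gave 0 to 77. On the log2(CPM + 0.5) scale their medians were 2.00, 0.44 and 0.89 in Mycl livers 1, 2 and 3, so liver 1 was highest. Every Mycl liver lay above every no dox liver for 74 of the 80, beside 13.2% of all tested genes. Many have near-identical copies. The part of transcript length in these counts was not tested.

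The ribosome biogenesis list had 45 tested genes (45 listed). Of these, 1 rose, 0 fell and 44 missed the threshold, beside 2.24% and 0.964% of all tested genes. These counts were 2 and 0 without Mycl liver 1, and 0 and 0 without Mycl liver 3. The list of translation factors and tRNA synthetases had 35 tested genes (35 listed). Of these, 1 rose, 0 fell and 34 missed the threshold, beside the same shares of all tested genes. With Mycl liver 1 left out, 1 rose and 0 fell, and without Mycl liver 3, 0 and 0. No gene of 39 passed for the mitochondrial ribosome. The median log2 fold changes of these 3 lists were 0.28, 0.10 and 0.26. Npm1, the nucleolar protein nucleophosmin, had 175, 106 and 179 CPM in Mycl livers, against 70.6, 68.9 and 69 CPM in no dox livers (log2 fold change 1.14, SE 0.24, adjusted p = 0.0353; adjusted p = 0.0335 without Mycl liver 1 and 0.0781 without Mycl liver 3). Eef1b2, an elongation factor subunit gene, had 655, 198 and 308 CPM in Mycl livers, against 148, 115 and 123 CPM in no dox livers (log2 fold change 1.59, SE 0.36, adjusted p = 0.0441; adjusted p = 0.0204 without Mycl liver 1 and 0.0664 without Mycl liver 3). Mycl liver 1 was the highest for Eef1b2. The mitochondrial ribosome medians were 0.66, -0.10 and 0.02 in Mycl livers 1, 2 and 3, with the highest value in liver 1, the library with high short transcripts.

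Several genes of nucleotide synthesis and of chromatin maintenance rose. The list of nucleotide and polyamine synthesis had 34 tested genes (34 listed). Of these, 4 rose, 0 fell and 30 missed the threshold, beside 2.24% and 0.964% of all tested genes. Leaving out Mycl liver 1 gave 6 and 0, and leaving out Mycl liver 3 gave 2 and 0. Rrm2, the regulatory subunit of ribonucleotide reductase, had 18.7, 20.1 and 13.8 CPM in Mycl livers, against 5.8, 5.19 and 5.41 CPM in no dox livers (log2 fold change 1.68, SE 0.30, adjusted p = 0.0221; adjusted p = 0.025 without Mycl liver 1 and 0.0312 without Mycl liver 3). Tk1, thymidine kinase, had 36.9, 22.1 and 31.7 CPM in Mycl livers, against 14, 15.4 and 11.2 CPM in no dox livers (log2 fold change 1.15, SE 0.20, adjusted p = 0.0184; adjusted p = 0.0169 without Mycl liver 1 and 0.0481 without Mycl liver 3). Mthfd1l, of mitochondrial folate metabolism, rose at 1.85 (SE 0.41), and Impdh2, of guanine nucleotide synthesis, at 0.80 (SE 0.17), on the log2 scale. Neither passed without Mycl liver 3, with an adjusted p = 0.1 for Mthfd1l and 0.0823 for Impdh2.

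The chromatin maintenance list had 26 tested genes (26 listed). Of these, 8 rose, 0 fell and 18 missed the threshold, beside 2.24% and 0.964% of all tested genes. These counts were 8 and 0 without Mycl liver 1, and 2 and 0 without Mycl liver 3. Uhrf1, which helps to copy DNA methylation, had 6.69, 15.8 and 11.3 CPM in Mycl livers, against 1.31, 2.72 and 1.43 CPM in no dox livers (log2 fold change 2.64, SE 0.48, adjusted p = 0.0232; adjusted p = 0.015 without Mycl liver 1 and 0.051 without Mycl liver 3). Hells, a chromatin remodeller gene, had 8.95, 15.3 and 10.8 CPM in Mycl livers, against 2.19, 3.29 and 2.39 CPM in no dox livers (log2 fold change 2.16, SE 0.38, adjusted p = 0.021; adjusted p = 0.0168 without Mycl liver 1 and 0.0432 without Mycl liver 3). Top2a and the linker histone gene Hist1h1b rose at 1.89 (SE 0.37) and 2.17 (SE 0.33), and Top2a did not pass without Mycl liver 3 (adjusted p = 0.0688). The per-liver medians of this list were 0.74, 0.57 and 0.68, and those of nucleotide synthesis 0.52, 0.36 and 0.49, all above 0.

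Few genes of the stress lists passed. The ATF4 and unfolded protein response list had 30 tested genes (31 listed). Of these, 2 rose, 0 fell and 28 missed the threshold, beside 2.24% of all tested genes that rose. With Mycl liver 1 left out, 7 rose and 0 fell, and without Mycl liver 3, 2 and 0. Manf, a secreted factor of endoplasmic reticulum stress, had 119.5, 94.1 and 98.9 CPM in Mycl livers, against 54.5, 53.4 and 55.7 CPM in no dox livers (log2 fold change 0.93, SE 0.16, adjusted p = 0.0181; adjusted p = 0.015 without Mycl liver 1 and 0.038 without Mycl liver 3). Psat1, of serine synthesis, had 7.59, 4.61 and 9.75 CPM in Mycl livers, against 1.48, 1.26 and 1.35 CPM in no dox livers (log2 fold change 2.41, SE 0.48, adjusted p = 0.0299; adjusted p = 0.037 without Mycl liver 1 and 0.0718 without Mycl liver 3). Fkbp11, a prolyl isomerase gene of the secretory pathway that is on no list, had 43.4, 23 and 18.5 CPM in Mycl livers, against 12.2, 9.23 and 10.8 CPM in no dox livers (log2 fold change 1.39, SE 0.32, adjusted p = 0.0481; adjusted p = 0.0396 without Mycl liver 1 and 0.0402 without Mycl liver 3). All 3 had groups without overlap. Among 24 chaperonin and heat shock genes, Hspa1b fell, with 3.61, 3.96 and 3.35 CPM in Mycl livers, against 7.28, 5.63 and 7.4 CPM in no dox livers (log2 fold change -0.89, SE 0.20, adjusted p = 0.0441; adjusted p = 0.0636 without Mycl liver 1 and 0.141 without Mycl liver 3).

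**Figure D4:**
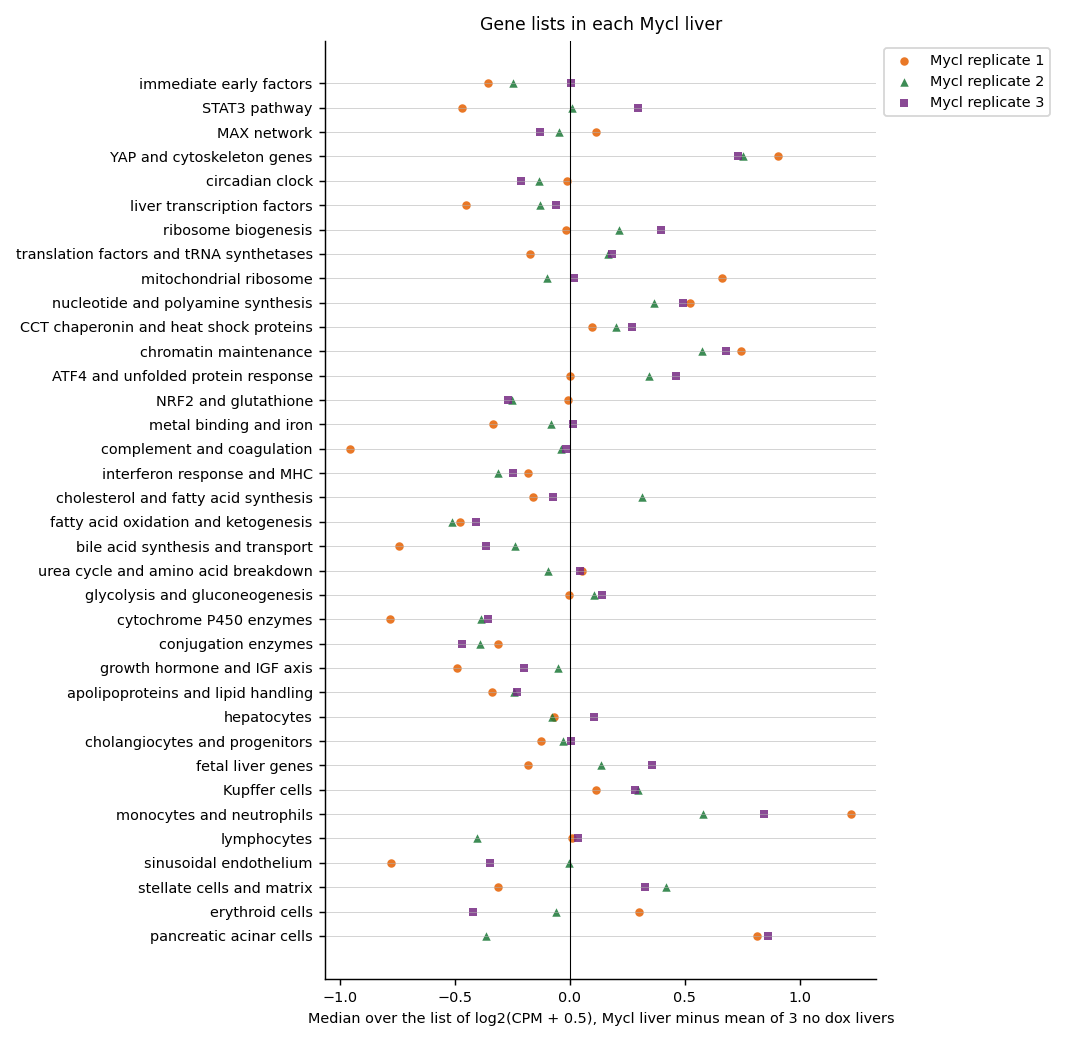
Each row is a gene list and each point a Mycl liver, at the median over the tested members of the difference in log2(CPM + 0.5) from the mean of the 3 no dox livers. The monocyte and neutrophil list lies at 1.22, 0.58 and 0.84 and the YAP and cytoskeleton list at 0.90, 0.75 and 0.73 in Mycl livers 1, 2 and 3, while fatty acid oxidation lies at -0.48, -0.51 and -0.41.

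Mycl and c-Myc livers had the same dose and time but different lines, so line and factor cannot be told apart. In this comparison 333 genes were higher and 524 lower in the Mycl than in the c-Myc livers, 2.63% and 4.14% of the tested genes. Without Mycl liver 3 the counts were 190 and 183, and without Mycl liver 2 they were 261 and 262. Of the 283 genes that rose against no dox, the test against c-Myc placed 18 higher and 69 lower in Mycl, and 196 did not pass. Of the 122 that fell, it placed 1 higher and 14 lower, and 107 did not pass. Both comparisons use the same 3 Mycl livers, so these counts are a description.

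The reporter overlapped between the induced groups. IRES-mCherry had 52.3, 146 and 269.8 CPM in Mycl livers, 221, 282 and 76.4 CPM in c-Myc livers and 1.09, 0.316 and 0.318 CPM in no dox livers. The difference between Mycl and c-Myc livers did not pass (log2 difference -0.31, SE 0.58, adjusted p = 0.764). Myc, the c-Myc gene, had 4.61, 5.37 and 14.2 CPM in Mycl livers, 214, 269.8 and 81.8 CPM in c-Myc livers and 4.05, 7.02 and 12.7 CPM in no dox livers (Mycl against c-Myc, log2 difference -4.54, SE 0.61, adjusted p = 0.00795).

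Several genes were higher in the Mycl livers than in both other groups. Lpin1 had 242, 286 and 296 CPM in Mycl livers, 54.1, 68 and 60.7 CPM in c-Myc livers and 77.7, 95 and 114 CPM in no dox livers (Mycl against c-Myc, log2 difference 2.17, SE 0.18, adjusted p = 0.000759). Tff3 had 77.4, 27.9 and 87.5 CPM in Mycl livers, 6.08, 5.75 and 7.18 CPM in c-Myc livers and 8.65, 2.97 and 6.92 CPM in no dox livers (log2 difference 3.34, SE 0.46, adjusted p = 0.00862). Fam107a had 5.33, 4.39 and 5.3 CPM in Mycl livers, 0.0543, 0.366 and 0.266 CPM in c-Myc livers and 0.0547, 0.506 and 0.557 CPM in no dox livers (log2 difference 4.41, SE 0.56, adjusted p = 0.00688). For each of them, every Mycl liver lay above every c-Myc liver. The differences from c-Myc also passed without Mycl liver 1, and without Mycl liver 3 with an adjusted p = 0.00329 for Lpin1, 0.0163 for Tff3 and 0.0149 for Fam107a.

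Ip6k2, Pfkfb1, Prtn3 and Saa3 were also higher in Mycl livers than in both. Ip6k2 had 82, 64 and 73.7 CPM in Mycl livers, 27.9, 23.1 and 33.4 CPM in c-Myc livers and 32.7, 28.6 and 32.2 CPM in no dox livers (log2 difference 1.38, SE 0.16, adjusted p = 0.00499). Pfkfb1 had 31.4, 23.4 and 34.6 CPM in Mycl livers, 11.8, 11.2 and 14.6 CPM in c-Myc livers and 13.5, 12.7 and 13.4 CPM in no dox livers (log2 difference 1.25, SE 0.17, adjusted p = 0.00862). Prtn3 had 10.1, 6.78 and 12.4 CPM in Mycl livers, 2.99, 2.46 and 1.6 CPM in c-Myc livers and 1.26, 0.443 and 0.716 CPM in no dox livers (log2 difference 2.04, SE 0.34, adjusted p = 0.0161), with the c-Myc livers between the other groups. Saa3 had 29.9, 13.9 and 36.9 CPM in Mycl livers, 14.3, 7.94 and 8.85 CPM in c-Myc livers and 3.72, 3.16 and 3.18 CPM in no dox livers (log2 difference 1.37, SE 0.34, adjusted p = 0.0408). Its lowest Mycl liver lay below the highest c-Myc liver. For Saa3 the difference from c-Myc was lost without Mycl liver 1 (adjusted p = 0.0562) and without Mycl liver 3 (adjusted p = 0.0928).

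Lower in the Mycl livers than in both were Klf11 and Pim1. Klf11 had 6.14, 6.67 and 6.52 CPM in Mycl livers, 9.94, 11.9 and 10.6 CPM in c-Myc livers and 21.7, 19.6 and 19.6 CPM in no dox livers (log2 difference -0.75, SE 0.14, adjusted p = 0.0202). Pim1 had 13.6, 10.8 and 17.6 CPM in Mycl livers, 27.8, 25.9 and 25.4 CPM in c-Myc livers and 42.5, 31.6 and 31.5 CPM in no dox livers (log2 difference -0.91, SE 0.19, adjusted p = 0.0296). Cyp4a12a had 44.3, 58.1 and 29.6 CPM in Mycl livers, 135, 73 and 123 CPM in c-Myc livers and 227, 315 and 267 CPM in no dox livers (log2 difference -1.33, SE 0.29, adjusted p = 0.0307), and its difference from c-Myc was lost without Mycl liver 3 (adjusted p = 0.0662). Klf10, a relative of Klf11 chosen after its values were seen, had 5.78, 6.13 and 5.67 CPM in Mycl livers, 13.3, 17.5 and 9.78 CPM in c-Myc livers and 25, 38.6 and 16.6 CPM in no dox livers (log2 difference -1.21, SE 0.31, adjusted p = 0.045), and its difference from c-Myc was lost without Mycl liver 1 (adjusted p = 0.0646) and without Mycl liver 3 (adjusted p = 0.0913). The group means of these 4 genes were lowest in Mycl and highest in no dox livers.

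Uhrf1 and Mthfd1l rose against no dox and were lower in Mycl than in c-Myc livers. Uhrf1 had 6.69, 15.8 and 11.3 CPM in Mycl livers, 57.8, 93.7 and 31.9 CPM in c-Myc livers and 1.31, 2.72 and 1.43 CPM in no dox livers (log2 difference -2.43, SE 0.42, adjusted p = 0.017). Mthfd1l had 3.61, 4.23 and 7.49 CPM in Mycl livers, 22.2, 34.5 and 13.2 CPM in c-Myc livers and 1.31, 1.39 and 1.59 CPM in no dox livers (log2 difference -2.18, SE 0.36, adjusted p = 0.0157). For both, the c-Myc livers lay above the Mycl livers without overlap. Ccr2 had 7.41, 7.48 and 7.62 CPM in Mycl livers, 7.44, 9.19 and 6.12 CPM in c-Myc livers and 1.04, 1.26 and 2.07 CPM in no dox livers, and the difference between Mycl and c-Myc livers did not pass (log2 difference -0.02, SE 0.23, adjusted p = 0.966). Cdkn1a had 30.2, 36.7 and 55.1 CPM in Mycl livers, 31.4, 67.3 and 26.1 CPM in c-Myc livers and 4.05, 5.44 and 5.41 CPM in no dox livers, and here too that difference did not pass (log2 difference -0.03, SE 0.34, adjusted p = 0.959).

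**Figure D5:**
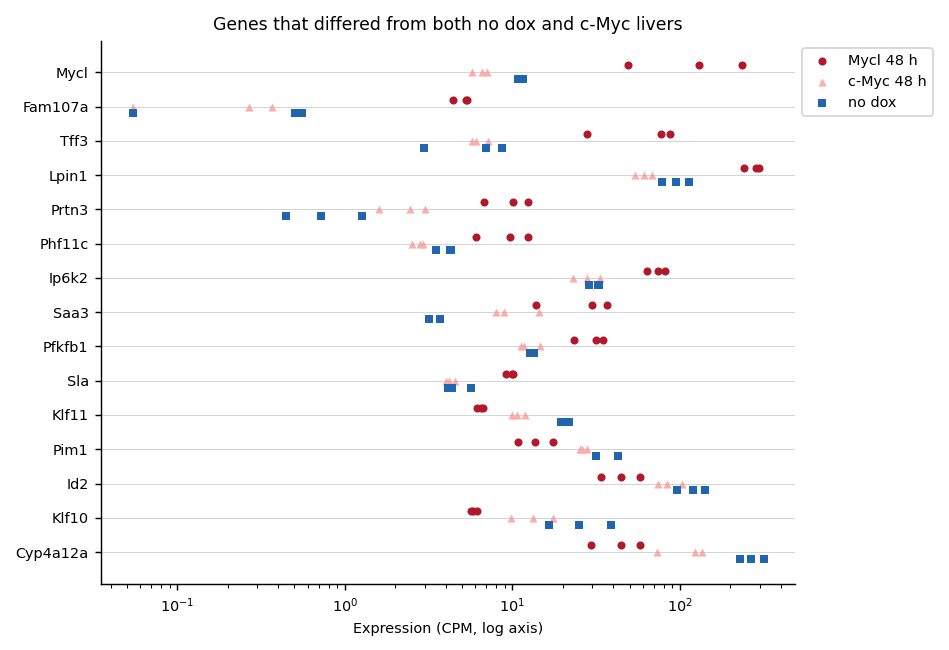
Each point is 1 liver, placed by its expression in CPM on a log axis, with Mycl livers as red circles, c-Myc livers as pink triangles and no dox livers as blue squares. The 15 rows are genes that passed against no dox with all livers, without Mycl liver 1 and without Mycl liver 3, and that passed in the same direction against c-Myc with all livers; they were chosen on these values. Lpin1 lies at 242 to 296 CPM in the Mycl livers, right of both other groups, and Klf11 at 6.14 to 6.67 CPM, left of both.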

How the data were processed

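The authors deposited a table of raw counts of reads per gene for 9 mouse livers, of which 6 form the comparison. Libraries were directional, per the labels' protocols. The submitters' processing notes name cutadapt 3.0, STAR 2.7.8a, HTSeq 0.11.2, DESeq2 1.30.0 and mm10. The strand setting and the annotation of the counting are not stated. The counts were taken as deposited. Of 21703 rows, 115 had no symbol in GENCODE M21 (GRCm38), which gave positions and transcript lengths. Genes were kept by filterByExpr (minimum count 10), scaled by TMM and tested with edgeR 4.0.16 in R 4.3.3 (glmQLFit and glmQLFTest over all 9 livers, 6 residual degrees of freedom), with Benjamini-Hochberg adjustment over 12651 genes. The SE is the size of the log2 fold change divided by the square root of F. Total counts ran from 11013412 to 20079232, and this depth sets the precision of low counts. No 2 livers agreed within sampling noise.

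Named genes were up to 12 per direction that passed in every fit without 1 liver (mean of at least 1 CPM), up to 15 per direction by fold change that passed without Mycl liver 1 and without Mycl liver 3 with a mean CPM at or above the median, up to 4 per list by adjusted p, and the Myc family, reporter and marker genes. The members, the 36 lists and this rule were chosen with earlier results of these data known. Alternatives were other scalings and filters, glmTreat at 1.5-fold, DESeq2 1.42.0, limma-voom (limma 3.58.1), the 6 livers alone, a replicate block and each liver left out. Genes with near-identical copies are uncertain, since the treatment of multi-mapping reads is not stated.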

Additional observations from a re-analysis of the deposited data

How the results depend on the processing

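The counts of genes past the threshold, given as higher and lower in Mycl than in no dox livers, were 283 and 122. They were 177 and 43 under a stricter filter (1 CPM in 3 livers and a mean of 5 CPM), 70 and 13 against a 1.5-fold change, 744 and 342 with DESeq2, and 132 and 68 with limma-voom. Genes lower were 69 with library totals, 78 with upper-quartile factors, 80 with factors from transcripts of at least 1500 nt and 64 with the 6 livers alone. Leaving out 1 liver gave 17 to 539 higher and 9 to 178 lower, with the low end without no dox liver 1. At an unadjusted p under 0.05, 1395 genes were higher and 1146 lower. Against c-Myc livers, DESeq2 gave 745 higher and 998 lower, and leaving out 1 Mycl liver gave 190 to 477 higher and 183 to 586 lower. The causes were not tested. The stricter filter left no lymphocyte gene, so that list has no median under it.

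Of the 83 named genes that passed, none changed direction in any alternative that tested it. The stricter filter removed 9 of them, and 60 passed under it. All 83 passed with DESeq2, 68 with limma-voom, 79 without Mycl liver 1, 77 without Mycl liver 2, 47 without Mycl liver 3, and 23, 35 and 36 without no dox livers 1, 2 and 3. Among genes that did not pass, leaving out 1 liver gave a log2 fold change of Myc from -0.58 (without Mycl liver 3) through -0.21 (without no dox liver 1) to 0.61, and a log2 fold change of Mycn from -0.63 (without Mycl liver 2) to 0.85. With limma-voom, the log2 fold change of Mycn was -0.19. The labels number the livers but do not say what a number marks. Deviations of same-numbered Mycl and no dox livers correlated at 0.314, 0.0866 and 0.0353, so the numbers were not taken as pairs. With the replicate number as a block, 228 genes were higher and 69 lower, and 62 of the 83 passed.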

Other observations

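Replication-dependent histone genes were counted by name after their values were seen, without a test of the family. Hist1h1b and Hist1h1c, counted here by name, are also in the chromatin maintenance list, where Hist1h1b rose. Of 54 tested replication-dependent histone genes, 24 rose and 0 fell, beside 2.24% and 0.964% of all tested genes. Their median log2 fold change was 1.84, against 0.01 over all tested genes. Without Mycl liver 1, 22 rose, and without Mycl liver 3, 16 rose. The histone medians were 1.80, 0.79 and 1.35 in Mycl livers 1, 2 and 3 on the log2(CPM + 0.5) scale. Every Mycl liver lay above every no dox liver for 43 of the 54, beside 13.2% of all tested genes. Many have near-identical copies, and Mycl liver 1 had a median of 1.34 over all genes with a longest transcript under 800 nt. The part of transcript length in these counts was not tested. Leaving out any 1 of the 6 livers gave 0 to 34 histone genes that rose.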
